A study of Homo sapiens with 9 samples.

Results

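Small nucleolar RNA host genes were followed in RNA of PaTu 8988t cells, an established line of human pancreatic tumour origin, over 9 sequencing libraries. The members were all rows of the deposited tables whose symbol was GAS5, ZFAS1, EPB41L4A-AS1 or SNHG with a number. The rule named no expression value and found 28 rows with 27 symbols among the 58735 genes of each table. The cells had been treated with extracellular matrix, in 3 groups of 3 libraries: matrix labelled Ctrl (called control here), matrix labelled CPXM2WT OE, which contained wild-type CPXM2 (called wild type here), and matrix labelled CPXM2R213A OE, which contained the mutant R213A (called R213A here). CPXM2 is a secreted member of the carboxypeptidase family, and the comparison asks how its presence in the matrix, and the mutation, relate to the RNA of the tumour cells. All groups share the cell line and the growth medium with serum and antibiotics, and the sources used here do not name the cells that laid down the matrix. Whether the 3 libraries of a group stem from separate cultures is not stated, and the p-values cover only library-to-library spread, which may be technical.

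Small nucleolar RNAs (snoRNAs) guide chemical modification of ribosomal and spliceosomal RNA: box C/D snoRNAs guide ribose methylation and box H/ACA snoRNAs guide conversion of uridine to pseudouridine. Most human snoRNAs are cut out of introns of a longer host transcript. The host genes described here are annotated mostly as long non-coding RNAs, and their spliced transcripts are for several of them met by ribosomes and degraded by nonsense-mediated decay. Several of them, GAS5 among them, begin with a terminal oligopyrimidine (TOP) tract, the start that ribosomal protein mRNAs share and that ties their translation to growth signals. GAS5 was named for its accumulation in growth-arrested cells.

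The first bases of annotated transcripts are shown for 6 host genes, since the start is the feature that links some of them to ribosomal protein genes. These 6 are the hosts with a positive estimate for wild type against R213A below, so they do not stand for all hosts. Sequences were read from GENCODE 29 transcripts (hg38), 5′ to 3′ on the strand of the transcript, and end at 40 bases or at the first exon's end. For a gene with a transcript that starts with a searched motif, the most upstream such transcript is shown, otherwise the most upstream transcript. Transcripts with such a start are a minority, 6 of 29 for GAS5, 3 of 23 for SNHG5, 2 of 10 for ZFAS1 and 1 of 5 for SNHG8. Capitals mark a start with 1 of 4 motifs that were searched at the first base on the transcript strand only: CTTTT (as in GAS5), CTTTC (as in ZFAS1), CCTTT (as in SNHG3 and SNHG4) and, with no example shown, CTCTT. No start can match more than 1 of them. SNHG3, SNHG4, SNHG6, SNHG12, SNHG16 and SNHG19 also have an annotated transcript with such a start and are not shown. The regions are chr1:173867960-173867989 (minus strand) for GAS5, chr6:85678694-85678733 (minus) for SNHG5, chr20:49278642-49278681 (plus) for ZFAS1, chr4:118278758-118278792 (plus) for SNHG8, chr5:112160526-112160565 (plus) for EPB41L4A-AS1 and chr20:38435314-38435353 (minus) for SNHG17.
GAS5: CTTTTcgaggtaggagtcgactcctgtgag
SNHG5: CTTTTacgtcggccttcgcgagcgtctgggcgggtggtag
ZFAS1: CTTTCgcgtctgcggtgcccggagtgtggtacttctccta
SNHG8: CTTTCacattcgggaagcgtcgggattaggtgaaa
EPB41L4A-AS1: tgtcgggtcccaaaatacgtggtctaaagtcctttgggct
SNHG17: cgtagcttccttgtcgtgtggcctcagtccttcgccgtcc
Of 182 annotated transcripts of the 18 host genes that passed the filter on low values (mean level of 1 FPKM or more), 25 (13.7%) began with 1 of the motifs, in 10 of the 18 genes. The share was 0.802% over 206534 GENCODE transcripts and 0.892% over 28146 transcripts of long non-coding genes. Transcripts of the same gene count separately, other pyrimidine starts were not searched, and the shares were not tested against each other. A match describes the annotated start and not a mapped one, and a gene without a match has only no such letters at the annotated starts.

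The values are FPKM, reads scaled to gene length and to a factor per library, which was 0.850 to 1.09 times the recovered reads. Values can thus be set side by side between genes of a library. They came in separate tables: control 1, wild type 1 and R213A 1 and 3 share a table of 4 libraries (the 4-library table), and the remaining libraries, those numbered 2 with control 3 and wild type 3, share a table of 5 (the 5-library table). Between 15951927 and 18312806 reads per library were recovered from the FPKM values. The host genes took 0.0930% to 0.277% of them, or 16376 to 50389 reads. The epithelial markers KRT8, KRT18 and EPCAM were present and KRT7 and KRT19 had means under 1 FPKM (the 5 summed to 341 to 949 FPKM). Markers of other cells were near 0: the sum of 10 fibroblast markers was at most 0.925 FPKM, of 5 immune markers at most 0.190, and of 4 endothelial markers at most 1.03, with none above the filter.

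Box C/D hosts included the most abundant members. SNHG6 had the highest mean, 134 FPKM, with 97.7, 155 and 102 FPKM in control 1 to 3, 165, 108 and 118 in wild type 1 to 3, and 198, 113 and 151 in R213A 1 to 3. Its 3 groups overlapped, and its highest library exceeded its lowest 2.03-fold. GAS5 (chr1:173863900-173868882, minus strand) was at 43.0, 106 and 62.6 FPKM in control 1 to 3, 284, 64.7 and 71.3 in wild type 1 to 3, and 89.5, 68.2 and 100 in R213A 1 to 3. Its group values of 70.6 ± 32.3, 140 ± 125 and 86.0 ± 16.3 FPKM (SD, n = 3 each) overlapped, with wild type 1 far above the other 8 libraries and control 1 below them. SNHG5 (chr6:85660950-85678748, minus), host of SNORD50B, was at 33.2, 71.3 and 53.9 FPKM on control, 127, 51.4 and 59.8 on wild type, and 80.2, 57.6 and 77.4 on R213A. As for GAS5, wild type 1 was its highest library and control 1 its lowest.

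ZFAS1 (chr20:49278178-49295738, plus), which holds SNORD12, SNORD12B and SNORD12C, was at 23.3, 36.9 and 30.4 FPKM on control, 101, 29.6 and 34.5 on wild type, and 65.2, 30.8 and 43.3 on R213A. The order within the 4-library table was that of SNHG8 and SNHG17, with wild type 1 first, then R213A 1, R213A 3 and control 1. SNHG19 (chr16:2154797-2155358, minus), a short gene that holds SNORD60, was at 56.3, 19.2 and 6.53 FPKM on control, 61.7, 7.95 and 10.5 on wild type, and 193, 10.0 and 84.4 on R213A. Its 29.5-fold range was the widest of the 18 genes, R213A 1 was highest, and the 5 libraries of the 5-library table were all below the other 4. SNHG1 (chr11:62851988-62855914, minus), the host of a cluster of box C/D snoRNAs, was at 27.3, 15.4 and 15.5 FPKM on control, 34.4, 13.8 and 14.7 on wild type, and 35.9, 13.8 and 33.8 on R213A. Here the libraries split by table, at 27.3 to 35.9 against 13.8 to 15.5 FPKM, and the groups overlapped.

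Among box H/ACA hosts, SNHG8 (chr4:118278709-118279823, plus), which holds SNORA24, was at 51.0, 50.7 and 37.6 FPKM on control, 154, 39.2 and 44.1 on wild type, and 125, 39.98 and 71.6 on R213A. EPB41L4A-AS1 (chr5:112160526-112164276, plus), host of SNORA13, was at 6.97, 24.5 and 20.6 FPKM on control, 22.6, 18.5 and 20.1 on wild type, and 15.4, 19.5 and 13.3 on R213A. It was the exception among the abundant hosts, with a lower mean in the 4-library table (14.6 FPKM) than in the 5-library table (20.6), and control 1 was again its lowest library. SNHG7 (chr9:136721366-136728184, minus), with SNORA17A and SNORA17B, was at 22.9, 10.2 and 7.81 FPKM on control, 21.7, 6.74 and 8.06 on wild type, and 49.3, 7.97 and 25.1 on R213A. SNHG15 (chr7:44983023-44986961, minus), host of SNORA9, was at 8.88, 7.50 and 5.86 FPKM on control, 18.99, 7.24 and 7.41 on wild type, and 23.2, 7.04 and 15.3 on R213A. By FPKM, R213A 1 was the highest library for SNHG7 and SNHG15, and the 3 groups overlapped in all of these genes. SNHG17 (chr20:38420588-38435353, minus), which holds members of the SNORA71 family, was at 8.54, 5.70 and 5.82 FPKM on control, 22.2, 5.38 and 6.22 on wild type, and 19.6, 6.25 and 13.9 on R213A.

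**Figure D1:**
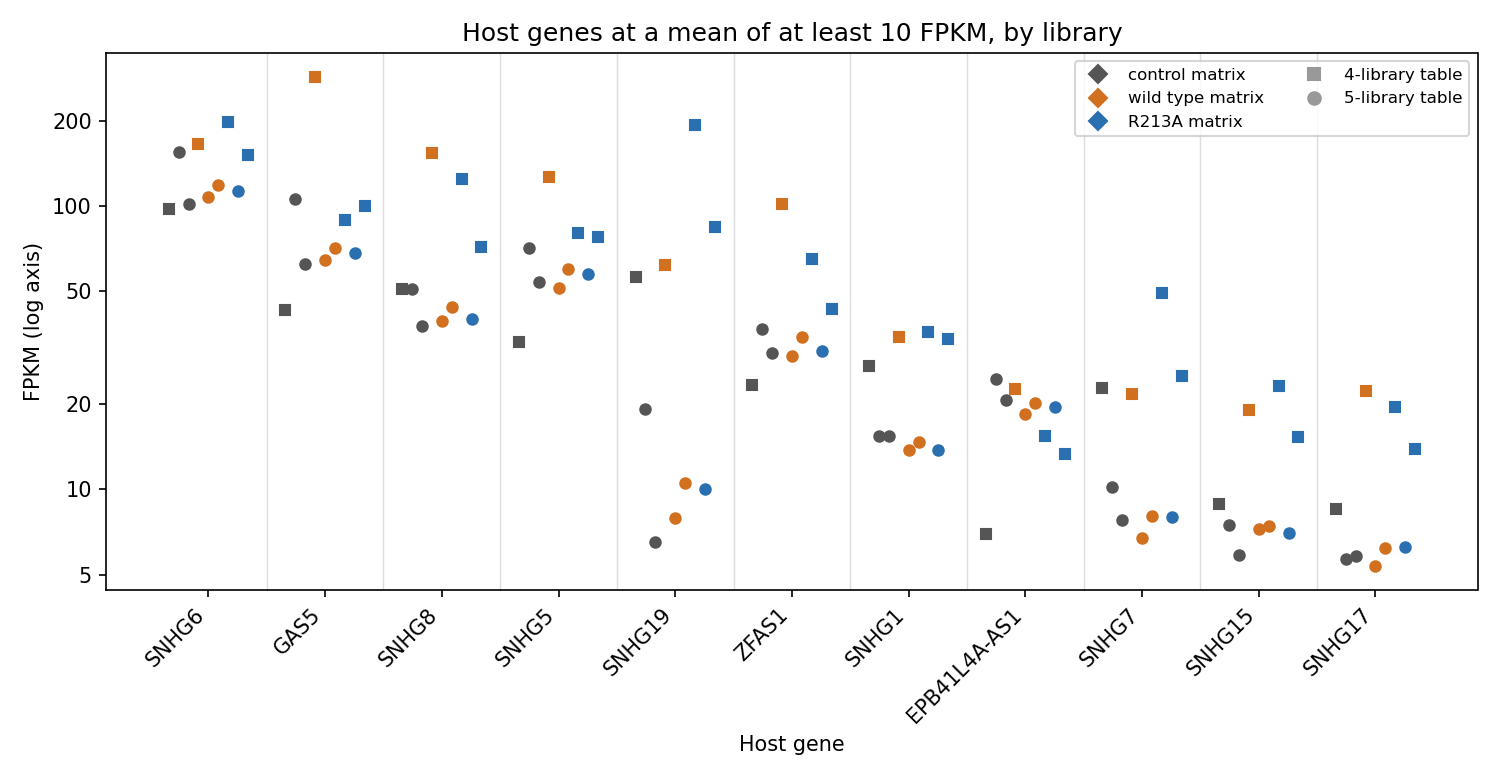
FPKM (log axis) of the 11 host genes whose mean reached 10 FPKM, 1 point per library, coloured by matrix, with squares for the 4-library and circles for the 5-library table. Wild type 1 is the highest point of GAS5 (284 FPKM), and control 1 (43.0 FPKM) lies below its 8 other points.

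Another 7 hosts had means of 1 to 10 FPKM. SNHG3, host of SNORA73A and SNORA73B, ranged from 5.32 to 19.3 FPKM, SNHG16, host of the SNORD1 cluster, from 5.60 to 11.0, and SNHG12, which holds both snoRNA classes, from 3.00 to 7.78. SNHG4, host of SNORA74A, ranged from 0.954 to 9.86 FPKM and was highest in control 1. SNHG11, host of SNORA60, ranged from 0.615 to 9.36 and was highest in wild type 1. SNHG9 (0.519 to 11.2 FPKM) and SNHG10 (0.545 to 3.45 FPKM) were highest in R213A 1, but SNHG9 rested on 5 to 84 reads and SNHG10 on 19 to 91 reads per library. The remaining 10 rows had a mean under 1 FPKM and entered no test. SNHG26 came nearest, at 0.487 to 2.23 FPKM, followed by SNHG20 (0.140 to 1.37), SNHG25 (0 to 2.39) and SNHG21 (0.0543 to 0.770). SNHG18, SNHG22, SNHG14 and 1 of the 2 rows named SNHG28 had at most 5 reads in a library. SNHG27 and the other SNHG28 row had 0 reads in all 9 libraries, which allows up to 3 reads in each for counting error.

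In order of mean level, SNHG6 was followed by GAS5 (98.9 FPKM), SNHG8 (68.1), SNHG5 (68.0), SNHG19 (49.9), ZFAS1 (43.9), SNHG1 (22.7), EPB41L4A-AS1 (17.9), SNHG7 (17.8), SNHG15 (11.3) and SNHG17 (10.4). Neighbours in this order overlapped in their libraries' values for every pair, so the order of single neighbours is not separated by this spread. Summed over all 28 rows, the host genes reached 428, 525 and 371 FPKM in control 1 to 3, 1059, 377 and 418 in wild type 1 to 3, and 964, 396 and 679 in R213A 1 to 3. GAS5 made up 26.8% of that sum in wild type 1, 9.29% in R213A 1, 10.0% in control 1 and 14.8% to 20.2% in the other libraries. By share of reads wild type 1 stood higher, with 0.277% in host genes against 0.164% in R213A 1, whose FPKM summed over all genes to 390413 against 296143 in wild type 1. R213A 3 took 0.156% of reads, near R213A 1, although its host sum was 679 against 964 FPKM.

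**Figure D2:**
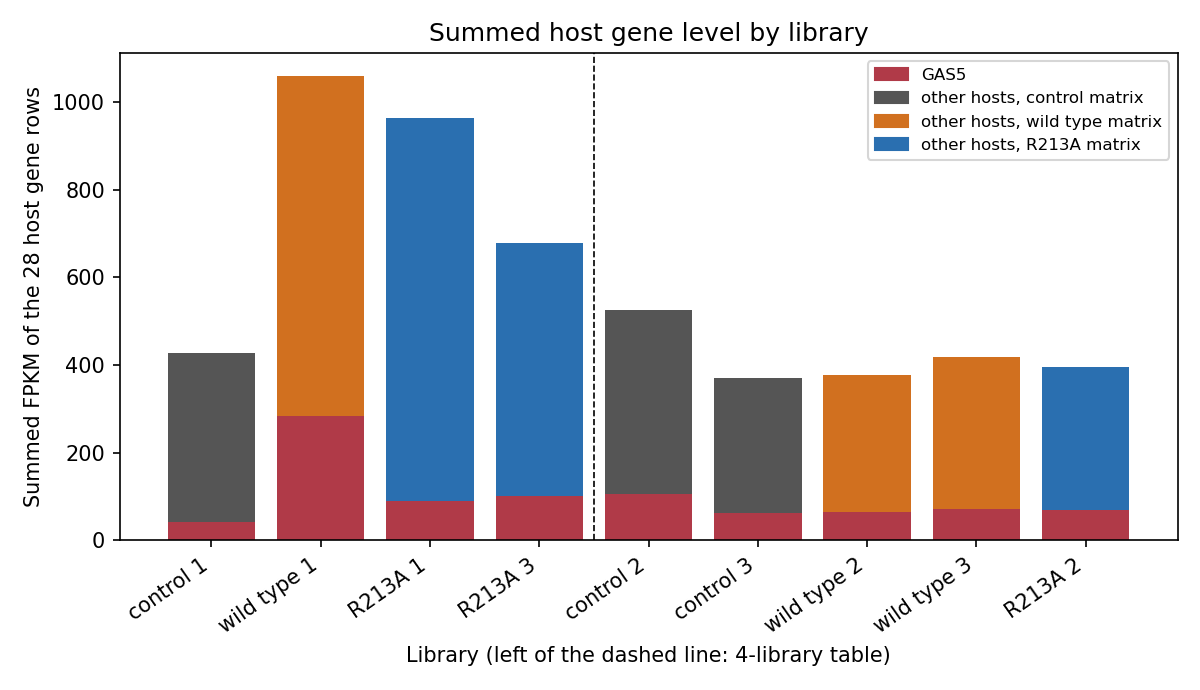
Summed FPKM of the 28 host rows in each library, with the part from GAS5 in red. Wild type 1 (1059 FPKM) and R213A 1 (964 FPKM) stand above the other 7 libraries, which lie between 371 and 679 FPKM. By share of reads, R213A 1 (0.164%) lies near R213A 3 (0.156%).

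Levels of many host genes split by deposited table. For 12 of the 18, SNHG1, SNHG3, SNHG4, SNHG7, SNHG8, SNHG9, SNHG10, SNHG11, SNHG12, SNHG15, SNHG17 and SNHG19, every library of the 4-library table lay above every library of the 5-library table, as did 23.7% of the 11193 genes tested. The reverse held for 0 of 18 hosts and for 30.3% of all genes. The mean in the 4-library table was 9.10 times that of the 5-library table for SNHG19, 8.50 times for SNHG11, and 1.29 times for SNHG6. No source used here says what the tables mark, so culture, preparation, sequencing and scaling cannot be told apart, and group differences were therefore formed within tables. Within the 4-library table, control 1 was the lowest library for 14 of 18 hosts (32.2% of all genes). Wild type 1 was the highest for 7, EPB41L4A-AS1, GAS5, SNHG5, SNHG8, SNHG11, SNHG17 and ZFAS1 (23.3% of all genes). R213A 1 was the highest for the 9 hosts SNHG1, SNHG3, SNHG6, SNHG7, SNHG9, SNHG10, SNHG12, SNHG15 and SNHG19 (33.0% of all genes). These ranks are by FPKM, whose scaling was 0.850 of the recovered reads in R213A 1 against 1.01 to 1.09 in the rest of that table. By share of recovered reads, wild type 1 and not R213A 1 was highest for SNHG1, SNHG6 and SNHG15. SNHG1 had 1829 of 15951927 reads in R213A 1 and 2497 of 18203911 in wild type 1. By that share control 1 was not the lowest library of SNHG12, with 403 of 17160420 reads against 423 of 18203911 in wild type 1. In the 5-library table, control 2 exceeded the other 4 libraries for 10 of 18 hosts (43.7% of all genes), with GAS5 at 1.70 times and SNHG19 at 2.95 times control 3.

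Wild type against control asks how the matrix with wild-type CPXM2 differs from the control matrix. No host gene passed the test over both tables: limma on log2(FPKM + 1) with the table as a term called 0 of 18 hosts and 0 of 11193 genes (0%), with a smallest Benjamini-Hochberg adjusted p of 0.757. limma-voom on the recovered reads also called 0. At an unadjusted p under 0.05, 0 hosts were higher or lower, against 2.25% and 2.24% of all genes. The estimate was positive for 14 of 18 hosts, a count to read beside 46.3% of all genes. The host median was 0.24 on the log2 scale against -0.03 for all genes, and it was 0.03 without control 1, 0.41 without control 2 and 0.11 without wild type 1. GAS5 had the largest estimate, 0.72 (SE 0.50, 95% interval -0.40 to 1.85, limma adjusted p = 0.757). ZFAS1 stood at 0.65, SNHG5 at 0.53, SNHG11 at 0.52 and SNHG8 at 0.48, all with the same adjusted p of limma. SNHG16 had the lowest estimate, -0.38 (95% interval -0.79 to 0.02). The median interval of a host reached 0.60 to either side.

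Within the 4-library table, where this comparison is 1 library against 1 and has no replicate check, wild type 1 was above control 1 for 14 hosts (46.0% of all genes) and below it for SNHG4, SNHG7, SNHG10 and SNHG16 (54.0% of all genes). It was at least 2-fold higher, a difference of at least 1 on the log2(FPKM + 1) scale, for 8 hosts (7.79% of all genes) and at least 2-fold lower for 0 (8.84%). The ratios of FPKM were 6.61 for GAS5, 4.35 for ZFAS1, 3.81 for SNHG5, 3.34 for SNHG11, 3.25 for EPB41L4A-AS1, 3.02 for SNHG8, 2.61 for SNHG17 and 2.14 for SNHG15. These 8 genes hold both box C/D and box H/ACA hosts, and genes with and without a motif at an annotated start. SNHG4 went the other way, at 0.450 times control 1. In the 5-library table no host differed 2-fold in either direction (0.205% of all genes were that much higher and 0.152% lower). Wild type 2 and 3 both lay above controls 2 and 3 for 4 hosts, SNHG4, SNHG9, SNHG11 and SNHG12 (15.0% of all genes), and below them for 2, SNHG1 and EPB41L4A-AS1 (15.4%). Host medians were 0.54 and -0.07 in the 4-library and 5-library tables, the latter 0.06 without control 2, while the median of all genes stayed between -0.07 and 0.00.

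**Figure D3:**
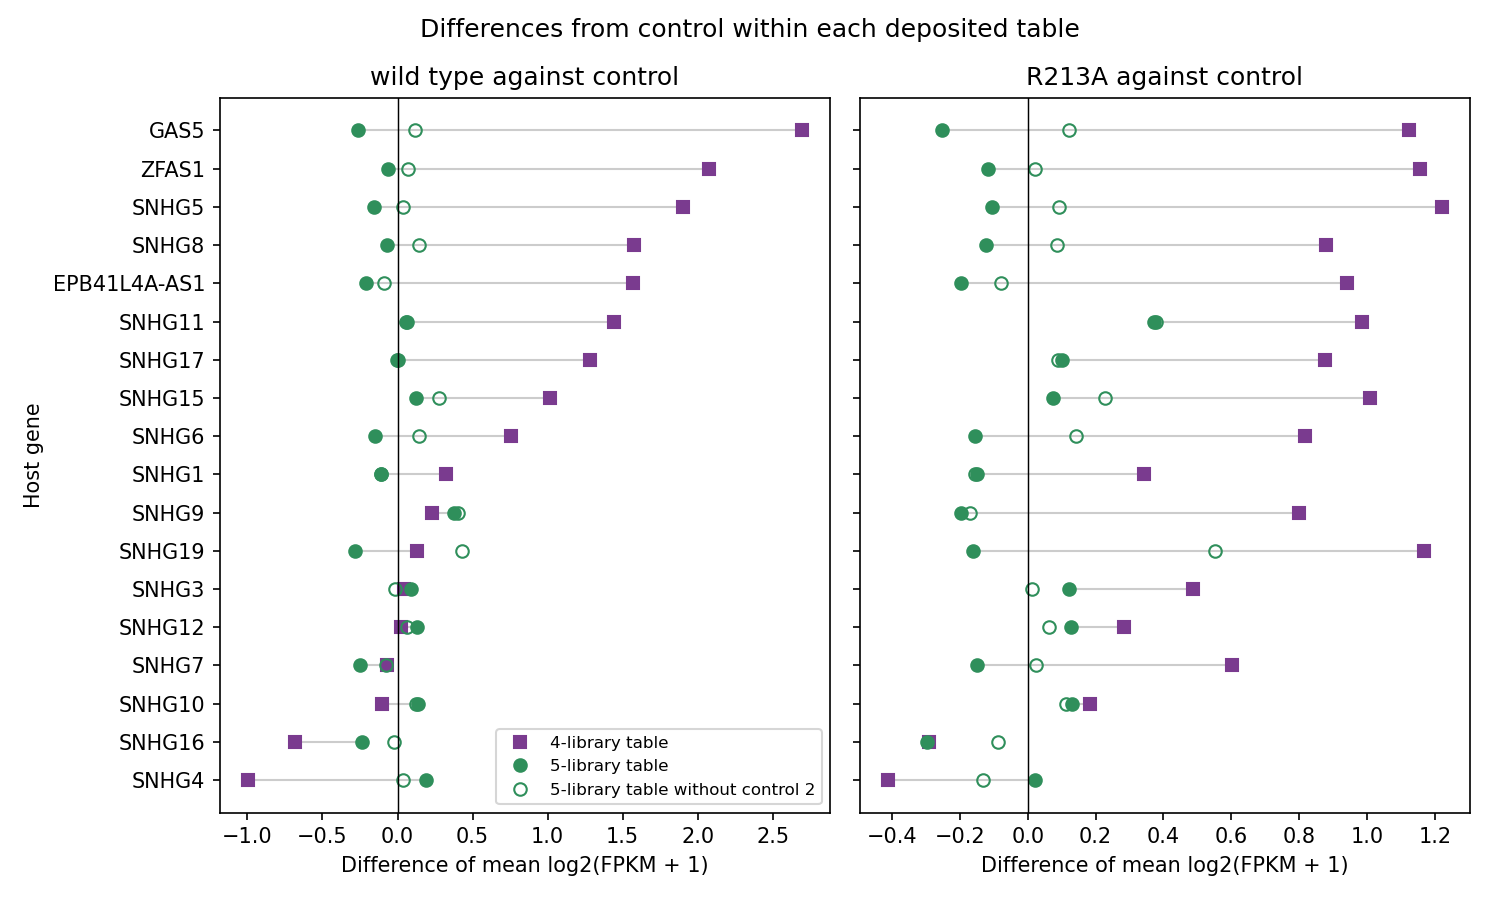
Difference of mean log2(FPKM + 1) from control for the 18 tested host genes, wild type at left and R213A at right, within the 4-library table (squares), the 5-library table (filled circles) and the 5-library table without control 2 (open circles). GAS5 has the widest gap at left, 2.70 against -0.26.

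The gap between the tables was itself tested with an interaction of group and table, with a lone library taken to vary as replicated ones do. For wild type against control it passed for GAS5, 1 of 18 hosts, and for 1.12% of all genes. For GAS5, wild type minus control was 2.70 within the 4-library table but -0.26 within the other, a gap of 2.96 (SE 0.48, limma adjusted p = 0.0464). This call was lost without control 2 (gap 2.58, limma adjusted p = 0.0998), without wild type 2 (2.89, 0.0868), without wild type 3 (3.03, 0.0743), without R213A 3 (2.96, 0.0503) and with no filter on low values (2.96, 0.0711). Control 2 held the highest GAS5 value of the 5-library table, 106 FPKM against 62.6 to 71.3 in the 4 other libraries. SNHG5 (2.06, limma adjusted p = 0.0566), EPB41L4A-AS1 (1.78, 0.0566), ZFAS1 (2.14, 0.0618) and SNHG11 (1.39, 0.0779) did not pass. At an unadjusted p under 0.05, 8 of 18 hosts had such a gap (20.7% of all genes): these 5 with SNHG8 and SNHG17, and SNHG4 with the opposite sign, -1.19.

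R213A against control asks the same of the matrix with the mutant. limma called 0 of 18 hosts and 0 of all genes (0%), limma-voom called 0, and the smallest adjusted p was 0.690. At an unadjusted p under 0.05, 0 hosts were higher or lower (1.28% and 1.77% of all genes). The estimate was positive for 16 of 18 hosts, beside 48.1% of all genes, and negative for SNHG4 and SNHG16. The host median was 0.27 against -0.02 for all genes, but -0.01 without control 1, 0.15 without R213A 1, 0.45 without R213A 2 and 0.46 without control 2. The largest estimates were 0.56 for SNHG11, 0.53 for SNHG19 and 0.49 for SNHG15 (limma adjusted p = 0.690, 0.695 and 0.690).

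Within the 4-library table R213A 1 and 3 both exceeded control 1 for 15 of 18 hosts (39.7% of all genes), and both lay below it for SNHG4 and SNHG16 (44.9%). The mean of the pair was at least 2-fold higher for GAS5, SNHG5, SNHG15, SNHG19 and ZFAS1 (5 hosts, 5.22% of all genes) and at least 2-fold lower for 0 (3.18%). R213A 1 was 3.42 and R213A 3 1.50 times control 1 for SNHG19, so the R213A libraries stood apart for this gene, whereas SNHG5 stood at 2.41 and 2.33 times. In the 5-library table no host differed 2-fold (0.304% of all genes higher, 0.223% lower). R213A 2 lay above both controls for 5 hosts, SNHG3, SNHG10, SNHG11, SNHG12 and SNHG17 (23.6% of all genes), and below both for 4, EPB41L4A-AS1, SNHG1, SNHG9 and SNHG16 (27.4%). The host medians were 0.85 and -0.12 in the 4-library and 5-library tables, and 0.07 in the latter without control 2. The interaction with the table passed for 0 hosts and 0 genes (0%). At an unadjusted p under 0.05 it reached 4 hosts, EPB41L4A-AS1, GAS5, SNHG5 and ZFAS1 (12.4% of all genes).

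**Figure D4:**
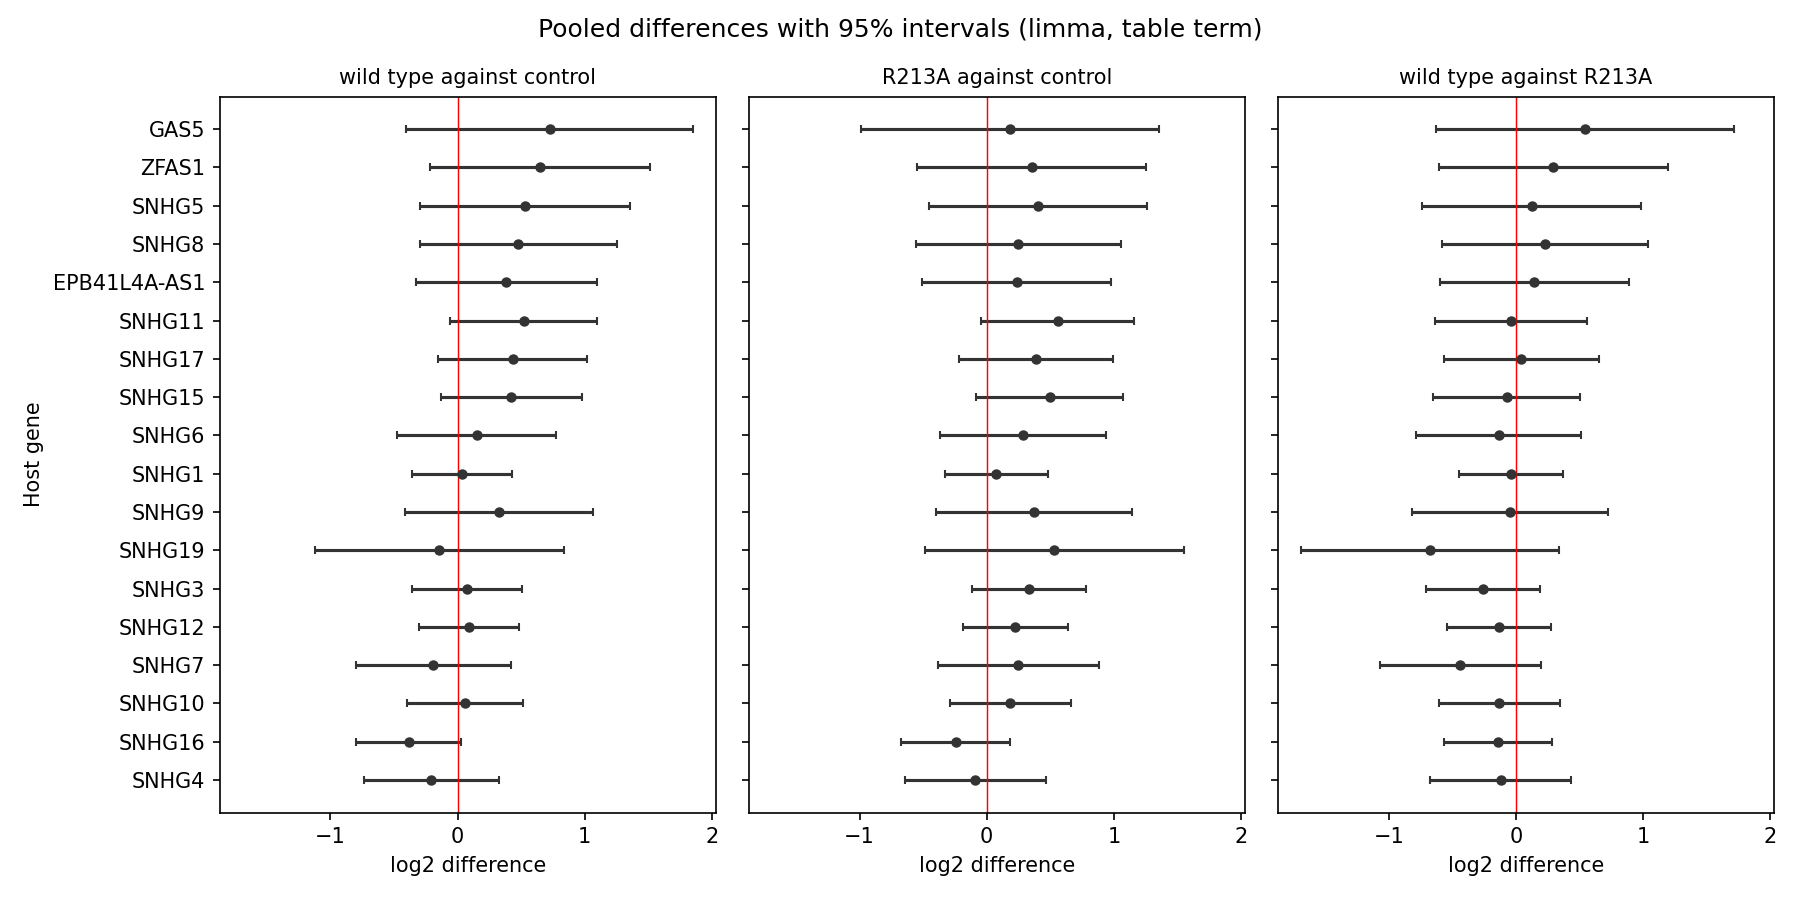
Estimated log2 differences of the 18 tested host genes over both tables (points) with 95% intervals from limma (bars), for the 3 comparisons. The interval covers 0 for each gene in each panel, and GAS5, at 0.72 in the left panel, has the largest estimate there.

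Wild type against R213A compares the matrices that differ by the mutation. limma called 0 of 18 hosts and 0 of all genes (0%), limma-voom called 0, and the smallest adjusted p was 0.996. At an unadjusted p under 0.05, 0 hosts were higher or lower (0.393% and 0.652% of all genes). The estimate was positive for 6 of 18 hosts, EPB41L4A-AS1, GAS5, SNHG5, SNHG8, SNHG17 and ZFAS1, beside 48.5% of all genes. In the 4-library table wild type 1 exceeded both R213A libraries for 7 hosts, these 6 and SNHG11 (33.0% of all genes), and lay below both for 7, SNHG3, SNHG4, SNHG7, SNHG9, SNHG12, SNHG16 and SNHG19 (37.7%). Against the mean of the R213A pair on the log2(FPKM + 1) scale it was at least 2-fold higher for GAS5 alone among the hosts (a difference of 1.57, 2.44% of all genes), with FPKM 3.17 and 2.83 times those of R213A 1 and 3. It was at least 2-fold lower on that scale for SNHG19 alone (-1.04, 4.07% of all genes), whose FPKM was 0.320 times that of R213A 1 but 0.731 times that of R213A 3. In the 5-library table no host differed 2-fold (0.0983% of all genes higher, 0.179% lower), and the host median was 0.00. The interaction with the table passed for 0 hosts and 0 genes (0%), and at an unadjusted p under 0.05 for GAS5, SNHG4 and SNHG11 (7.25% of all genes). The comparisons against control share the control libraries, so their values are not independent of each other.

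Other genes of snoRNA production and decay were listed from textbook knowledge, and 0 of their members passed limma in any of the 3 comparisons. The 8 core proteins of snoRNA particles, which bind and stabilise the RNA, had medians in the 4-library table of 0.20 for wild type and 0.57 for R213A against control. The 13 assembly factors of these particles had medians of -0.35 and -0.41, with positive estimates over both tables for 3 and 4 of 13. Among the core proteins, fibrillarin (FBL), the methyltransferase of the box C/D particle, stood at 0.21 and 1.05 there, dyskerin (DKC1), the pseudouridine synthase, at -0.63 and -0.29, and NOP58, a box C/D scaffold, at -0.31 and -0.38. The 21 ribosomal protein genes that host snoRNAs in their introns had medians of 0.70 and 1.00, above those of 20 tested protein-coding hosts outside the ribosome (-0.33 and 0.02). The 17 tested translation factors and related genes listed as TOP transcripts stood at 0.13 and 0.37. Factors of nonsense-mediated decay had medians of -0.21 and -0.10 over 19 genes, and 7 protein-coding transcripts known as decay substrates 1.30 and 0.46. Those 7 include ATF4 itself, and their members DDIT3 and ATF3 are also among the ATF4 targets of the next paragraph. The values of these lists are therefore not independent. Other listed long non-coding RNAs, among them DANCR, which is itself known as a snoRNA host, had medians of -0.20 and -0.49 over 7 tested genes. In the 5-library table these medians lay between -0.22 and 0.07.

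Other measures also differed among the libraries of the 4-library table. ATF4 targets are genes of the amino acid stress response. The summed FPKM of 14 of them was 1319 in wild type 1, 250 in control 1, 337 in R213A 1 and 772 in R213A 3. The R213A libraries thus stood apart, and the libraries of the other table lay between 722 and 856. The sum of 20 genes of the G2 and mitotic phases was 367 in wild type 1, 1285 in control 1, 1467 in R213A 1 and 1149 in R213A 3. In the other table it lay between 518 and 589. Mitochondrial transcripts took 2.19% of reads in wild type 1, 2.38% in control 1, 1.81% in R213A 1 and 2.11% in R213A 3. The scaling of the deposited values over the recovered reads was 1.06, 1.09, 0.850 and 1.01 in these libraries, in the same order. The part of each of these in the host gene values was not tested. In bulk RNA, fewer cells of a type and less RNA per cell cannot be told apart.

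SnoRNAs listed as rows of their own give a view of what was counted inside the hosts. The library kit selects polyadenylated RNA, which mature snoRNAs lack, and 204 of 992 snoRNA and small Cajal body RNA rows had a read in any library. Inside the 18 tested hosts lay 42 such rows, in 17 hosts. Of 25 rows lying fully inside annotated host exons, 0 had a read in any library, while 15 of 16 rows outside host exons had at least 1. The remaining row, SNORD30 in SNHG1, lay partly in exons and had 0. The rows are not all separate loci. Among those inside exons, SNORA17B and SNORA16A are each listed more than once, and RF00560 lies within SNORA17A. RF00345, the row outside exons without a read, lies within SNORD60. How reads shared by overlapping genes were assigned is not given here, and reads in a snoRNA cannot be told apart from reads of its host. The 84 rows inside SNHG14, a host with at most 1 read per library, had 0 reads.

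**Figure D5:**
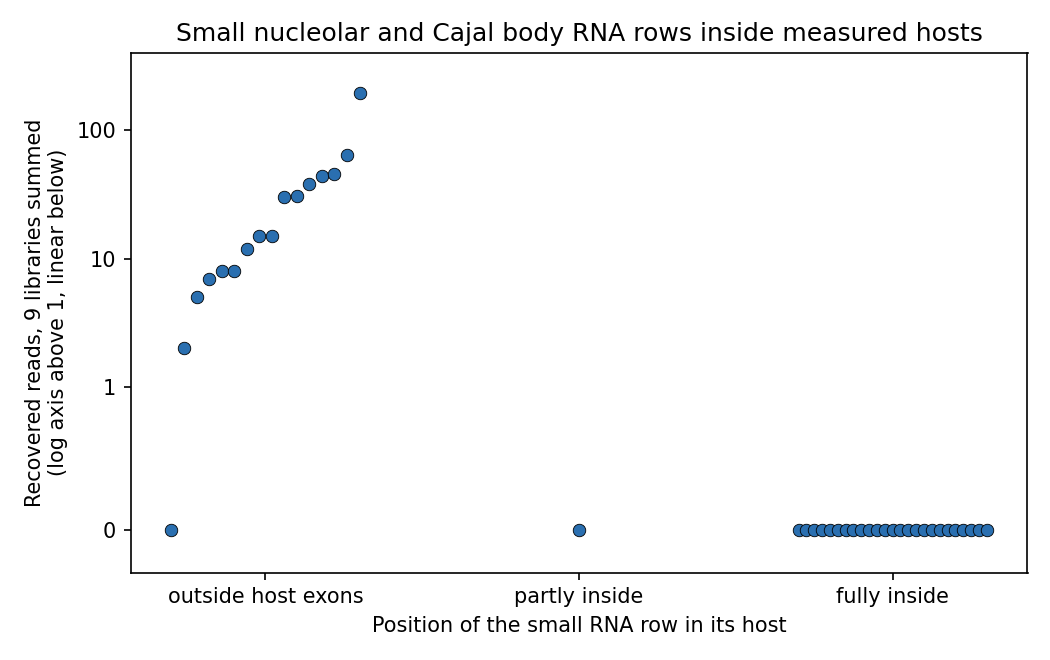
Recovered reads, summed over 9 libraries, of the 42 snoRNA and Cajal body RNA rows inside the tested hosts, by their position relative to annotated host exons (log axis above 1, linear below). All 25 rows fully inside exons sit at 0, and 15 of the 16 rows outside exons lie above 0.

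The contrast held between close relatives in 1 host, shown here in hg38 as DNA with the box motifs that match TGATGA near the start and CTGA near the end in capitals. SNORD12 (chr20:49280683-49280772, plus strand) lay fully inside an annotated exon of ZFAS1 and had 0 reads. SNORD12B (chr20:49280319-49280409, plus) and SNORD12C (chr20:49278940-49279028, plus) lay outside its exons and had 15 and 8 reads over the 9 libraries.
SNORD12: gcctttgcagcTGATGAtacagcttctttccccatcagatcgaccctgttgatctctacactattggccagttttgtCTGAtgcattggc
SNORD12B: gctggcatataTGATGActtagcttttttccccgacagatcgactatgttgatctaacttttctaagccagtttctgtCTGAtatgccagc
SNORD12C: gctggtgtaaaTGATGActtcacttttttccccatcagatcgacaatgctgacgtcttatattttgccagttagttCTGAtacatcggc
The box H/ACA pair of SNHG3 showed the same division, here with the ACA near the end in capitals. SNORA73A (chr1:28507366-28507571, plus) lay fully inside a host exon and had 0 reads, and SNORA73B (chr1:28508559-28508762, plus) lay outside and had 194.
SNORA73A: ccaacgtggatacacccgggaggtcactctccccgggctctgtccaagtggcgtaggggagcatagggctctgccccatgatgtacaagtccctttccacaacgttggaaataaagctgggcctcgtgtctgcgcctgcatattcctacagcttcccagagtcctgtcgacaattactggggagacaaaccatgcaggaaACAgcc
SNORA73B: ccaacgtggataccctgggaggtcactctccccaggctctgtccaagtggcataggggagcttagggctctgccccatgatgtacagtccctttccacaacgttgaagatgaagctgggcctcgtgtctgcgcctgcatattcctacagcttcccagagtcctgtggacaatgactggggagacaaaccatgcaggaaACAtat
SNORA73B reads numbered 23, 16 and 25 in control 1 to 3, 19, 23 and 26 in wild type 1 to 3, and 7, 28 and 27 in R213A 1 to 3, and the groups overlapped. SNORD104 had the most reads of the rows inside a host, 297, and lies outside the exons of SNHG25, a host with at most 9 reads in a library. It had 33, 12 and 10 reads in control 1 to 3, 82, 17 and 19 in wild type 1 to 3, and 73, 7 and 44 in R213A 1 to 3. Like 12 of the tested hosts, it was higher in each library of the 4-library table than in each of the 5-library table.

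Some host genes share exon bases with neighbours, and without a stated strand setting such reads cannot be told apart. SNHG3 shares 242 exon bases with RCC1 on the same strand, which was at 14.9 to 50.1 FPKM, above SNHG3 itself. SNHG4 shares 118 bases with SIL1 on the opposite strand, which was at 28.98 FPKM in wild type 1 against 8.78 in control 1, the reverse of SNHG4. SNHG10 shares 391 bases with GLRX5 (14.3 to 39.6 FPKM) and SNHG7 shares 1094 with FAM69B (2.17 to 12.2 FPKM), both on the opposite strand. GLRX5 and FAM69B were highest in R213A 1, as SNHG10 and SNHG7 were. Like their hosts, GLRX5, FAM69B and SIL1 were higher in each library of the 4-library table than in each of the 5-library table. Whether shared reads enter the host values was not tested. ZFAS1 shares 249 bases with ZNFX1 (3.33 to 5.84 FPKM, lowest in wild type 1, where ZFAS1 was highest). EPB41L4A-AS1 shares 1659 bases with EPB41L4A, which stayed at or below 0.433 FPKM. For GAS5 the opposite-strand gene GAS5-AS1 shares 42 bases and reached 1.27 FPKM, far under GAS5 itself.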

How the data were processed

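PaTu 8988t RNA was extracted with TRIzol and about 500 ng of total RNA per library went into the Illumina TruSeq stranded mRNA kit, per the labels' protocols. The genome build hg38 and bcl2fastq are named by the submitters' processing notes; for the aligner, counting program and strand setting the sources used here give no name. The deposited values are FPKM, computed by the authors per gene in 2 tables. Multiplied by gene length, 100% of FPKM values came out as whole reads within 0.01 reads, and the deposited scaling over these reads was 0.850 to 1.09. Listed coordinates matched GENCODE 29 for all 58735 genes.

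Values were compared on the log2(FPKM + 1) scale, which understates differences of low genes, for the 11193 genes whose mean reached 1 FPKM. One limma 3.58.1 fit in R 4.3.3, with a mean-variance trend, held all 9 libraries with group and table as terms, and a second fit held a mean per group and table for the interaction. P-values were adjusted over all genes tested by Benjamini and Hochberg (threshold 0.05). The table term also lets a group's libraries inform differences between the other groups. limma-voom was run on the recovered reads. Simulated data had 200 of 11193 genes changed, by 1, 2, 4 or 8 on the log2 scale. Wild type against control recovered 50%, 92%, 98% and 100% of them, in that order. The 182 genes called there included 12 that were unchanged. Recovery was not tested for GAS5 itself (SE 0.50 for wild type against control) or for a difference present in 1 library only.

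Same-numbered wild type and control libraries deviated together (correlations 0.60, 0.33 and 0.57 for numbers 1, 2 and 3), but each such pair also shares a table. Residuals of the fit with the table as a term correlated at -0.76, -0.47 and -0.13. Such residuals sum to 0 within each group and table, which tends to make these correlations negative, so they cannot decide whether the libraries are paired. For R213A against control the correlations of deviations were 0.73, 0.51 and -0.65. Replicate numbers are not stated to pair samples, so the number entered only as an alternative, a replicate block. Other alternatives changed the pseudocount, filter, scaling, table term, spread model, test and libraries; a length and GC correction was chosen after seeing the data.

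Hosts with a mean of at least 10 FPKM are described library by library, those of 1 to 10 FPKM by range and the rest by count. From each gene list up to 4 tested members of smallest p, and all snoRNA particle core proteins, may be named. The members, the lists and this rule were chosen with earlier results of these data known. Counts of reads cover counting error only.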

Additional observations from a re-analysis of the deposited data

Results flagged for a closer look

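The difference of GAS5 between wild type and control was not the same in the 2 deposited tables. It was 2.70 on the log2(FPKM + 1) scale in the 4-library table, from 1 library each, and -0.26 in the 5-library table, from 2 libraries each. The gap of 2.96 passed the limma interaction test (adjusted p = 0.0464). The call was lost without control 2 (gap 2.58), wild type 2 (2.89), wild type 3 (3.03) or R213A 3 (2.96). It was also lost with no filter on low values (2.96). What the tables mark is not given in the sources used here, and the source of the gap was not tested.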

How the results depend on the processing

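The counts of genes called over both tables stayed at 0 in the 3 comparisons under the alternatives run, except with no filter on low values, where 1 gene passed for wild type and 1 for R213A against control; 0 hosts were called in any. With no table term, and with the replicate block in its place, the host median was 0.53 for R213A against control and -0.38 for wild type against R213A; the replicate block changed no call. Leaving out 1 library moved the host medians over 0.03 to 0.41 (wild type against control), -0.01 to 0.46 (R213A against control) and -0.30 to 0.02 (wild type against R213A), and the other alternatives over 0.12 to 0.38, 0.21 to 0.53 and -0.38 to 0.03.

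The interaction depended more on the settings. For wild type against control 125 genes passed, but 1655 with no filter, 297 with quantile scaling, and 0 to 365 when 1 library was left out (0 without control 2, 365 without R213A 1). Hosts passing numbered 1, and 3 with no filter, 4 at a mean of at least 5 FPKM, 5 with quantile scaling and 0 to 4 with 1 library left out. With no filter, 1171 genes passed for R213A against control and 1262 for wild type against R213A, where leaving out 1 library gave 0 to 3. The causes were not tested. The interaction has no value without control 1, wild type 1 or R213A 2, the lone library of its group and table. The 95% interval of a host reached a median of 0.60 to 0.62 to either side on the log2 scale.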

Other observations

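Host genes that received an SNHG symbol later stand in the tables under other names and lay outside the rule. LRRC75A-AS1, now SNHG29, was at 183, 275 and 232 FPKM in control 1 to 3, 484, 235 and 251 in wild type 1 to 3, and 284, 240 and 303 in R213A 1 to 3. Wild type 1 was again the highest library and control 1 the lowest. C6orf48, now SNHG32, was at 31.9, 63.8 and 33.4 FPKM on control, 94.7, 32.4 and 34.5 on wild type, and 36.4, 34.7 and 44.6 on R213A, with the same libraries at the extremes. LINC02001, now SNHG30, differed from these: it was at 3.62, 1.17 and 2.12 FPKM on control, 2.51, 1.35 and 1.62 on wild type, and 7.25, 1.56 and 3.15 on R213A, with R213A 1 highest and control 2 lowest. AC016708.1, now SNHG31, stayed at or below 0.304 FPKM.

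Hosts with and without a searched motif at an annotated start had close medians in the 4-library table for R213A against control only. There the 10 with a motif stood at 0.85 and the 8 without at 0.84. For wild type against control, from 1 library each, they stood at 0.44 and 0.67. The tested hosts had a median gene length of 3488 bases against 4685 for all genes and a median GC content of 48.8% against 49.6%. After correction for both, chosen after seeing the data, the 4-library host medians were 0.61 for wild type and 0.60 for R213A against control, and GAS5 stood at 2.86 for wild type against control.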
